A study of Homo sapiens with 30 samples.

Results

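The regions described here were stretches of open chromatin that ATAC-seq, which uses the transposase Tn5 to cut accessible DNA, found in every Eahy926 library and in no TeloHAEC library. In each of 30 peak lists the 45000 autosomal peaks of lowest p were called strong, and overlapping strong peaks of all lists were merged into 104378 regions on the human build hg19. Of these, 19625 held a strong peak in all 15 Eahy926 libraries, and 364 of the 19625 (1.86%) overlapped no TeloHAEC peak of any strength. The 364 regions are called members below. Since they were chosen by the authors' p-values and peak positions in both lines, the contrast between the lines is described here and not tested.

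Eahy926 is a hybrid endothelial line, made by fusing umbilical vein endothelial cells with lung carcinoma cells, and was grown in DMEM with serum. TeloHAEC are aortic endothelial cells immortalised with telomerase and were grown in an endothelial medium that contains VEGF. Both lines were parental, without a genetic change made for the study, and each gave 15 libraries in 5 groups of 3 biological replicates. One group of each line was an untreated control prepared on day 0. The other groups were prepared on day 1: untreated controls, cells treated for 24 h with IL1b at 10 ng/ml, cells treated for 24 h with TNFa at 10 ng/ml, and cells with a 24 h change of VEGF, which was added to Eahy926 and withheld from TeloHAEC. Line and medium cannot be told apart in this design. The p-values below measure the spread between these replicates.

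Open chromatin marks DNA from which nucleosomes are displaced, mostly at gene starts and at distal enhancers. Starts of widely used genes tend to be open in most cell types, whereas distal regions differ more between cell types because they are opened by factors that only some cells make. IL1b and TNFa are inflammatory cytokines that act on endothelial cells mainly through NF-kB and AP-1, and VEGF is the principal growth factor of endothelium.

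Depth after removal of duplicates was 3577273 to 10524271 tags in Eahy926 and 3598755 to 11404955 in TeloHAEC, and the autosomal lists held 49774 to 85525 and 67804 to 115794 peaks. The 3 Eahy926 libraries of day 0 had 30-base tags and estimated fragment lengths of 91 to 96 bases, against 40-base tags and 108 to 169 bases on day 1. Read length therefore went with the preparation day, and the 2 cannot be told apart. As a check of the endothelial label, 19 of 49 gene starts from a list of endothelial identity genes had a strong peak within 1 kb in all 15 Eahy926 libraries, and 11 of 49 in all 15 TeloHAEC libraries. In the other direction, 20 of the 49 had one in no Eahy926 library and 14 in no TeloHAEC library, so the counts do not rank the lines. The start of KDR, the main VEGF receptor, was open in 15 libraries of each line. The starts of PECAM1 and ERG, as positioned here, had a strong peak in none of them.

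Sequences of the members could not be read here, since no genome of hg19 was used. As examples, the 250 bases before the start of 4 genes are given from RefSeq on GRCh38.p14. Apart from a copy of a mitochondrial gene, SPEF2, FSTL5 and WDR17 had the strongest members at gene starts, and they are shown with ERC2, whose member changed between days. Of the 10 genes with a start within 1 kb of a member, 7 had an entry in the RefSeq promoter table. Capitals mark matches, on either strand, to 7 motifs: the AP-1 site TGANTCA, the GC box GGGCGG, the CCAAT box CCAAT, the FOXA site TGTTTAC, the ETS site CCGGAAGT, the cAMP element TGACGTCA and the TATA box TATAAA.
SPEF2: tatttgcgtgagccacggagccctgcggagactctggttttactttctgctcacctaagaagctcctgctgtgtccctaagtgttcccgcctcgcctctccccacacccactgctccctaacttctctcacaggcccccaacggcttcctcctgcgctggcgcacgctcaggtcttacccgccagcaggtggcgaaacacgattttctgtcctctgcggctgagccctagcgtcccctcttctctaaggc
FSTL5: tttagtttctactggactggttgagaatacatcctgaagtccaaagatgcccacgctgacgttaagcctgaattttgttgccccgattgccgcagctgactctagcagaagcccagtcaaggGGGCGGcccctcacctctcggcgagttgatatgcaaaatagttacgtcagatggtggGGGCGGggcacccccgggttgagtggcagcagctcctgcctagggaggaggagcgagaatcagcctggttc
WDR17: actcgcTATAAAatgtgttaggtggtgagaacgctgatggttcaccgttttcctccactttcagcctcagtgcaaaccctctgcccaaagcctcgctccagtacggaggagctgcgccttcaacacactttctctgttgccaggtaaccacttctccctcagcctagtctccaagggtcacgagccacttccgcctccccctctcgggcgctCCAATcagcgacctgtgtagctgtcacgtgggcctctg
ERC2: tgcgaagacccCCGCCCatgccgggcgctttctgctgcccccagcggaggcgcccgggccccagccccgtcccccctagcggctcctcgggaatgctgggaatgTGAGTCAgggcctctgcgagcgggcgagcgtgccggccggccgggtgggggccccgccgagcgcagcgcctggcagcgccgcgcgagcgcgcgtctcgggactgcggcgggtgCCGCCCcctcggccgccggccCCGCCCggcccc
The ERC2 stretch was the richest in G and C at 81.2%, with 37 CpG dinucleotides, 3 GC boxes and 1 AP-1 site. FSTL5 had 2 GC boxes, 11 CpG dinucleotides and 56.4% G and C. WDR17 had a CCAAT box, a TATA box, 12 CpG dinucleotides and 56.8% G and C. In SPEF2, with 14 CpG dinucleotides and 60.0% G and C, none of the 7 motifs was found. The promoters not shown had 41.6% G and C (AADAT), 44.4% (GALNT13) and 72.4% (TIMP3). AADAT and GALNT13 had none of the 7 motifs, and TIMP3 had 5 GC boxes and 1 CCAAT box. Over all 35116 promoters of the table the medians were 58.0% G and C and 11 CpG dinucleotides. The share of those promoters with a match was 42.6% for the GC box, 32.0% for the CCAAT box, 10.7% for the TATA box, 6.57% for AP-1, 3.42% for ETS, 2.98% for FOXA and 1.65% for the cAMP element. None of the motifs overlaps another in the 4 stretches, and a match describes letters only.

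Absence from TeloHAEC was graded sharply. Of the 19625 regions strong in all Eahy926 libraries, 17136 (87.3%) had a peak in all 15 TeloHAEC libraries. The counts fell to 45 regions with a peak in 5 TeloHAEC libraries and rose again to 104 with a peak in 1 and 364 with a peak in 0. The plot of regions by TeloHAEC library count shows this dip. The mirrored rule gave 1106 regions found only in TeloHAEC, of 19082 strong in all 15 libraries of that line.

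**Figure D1:**
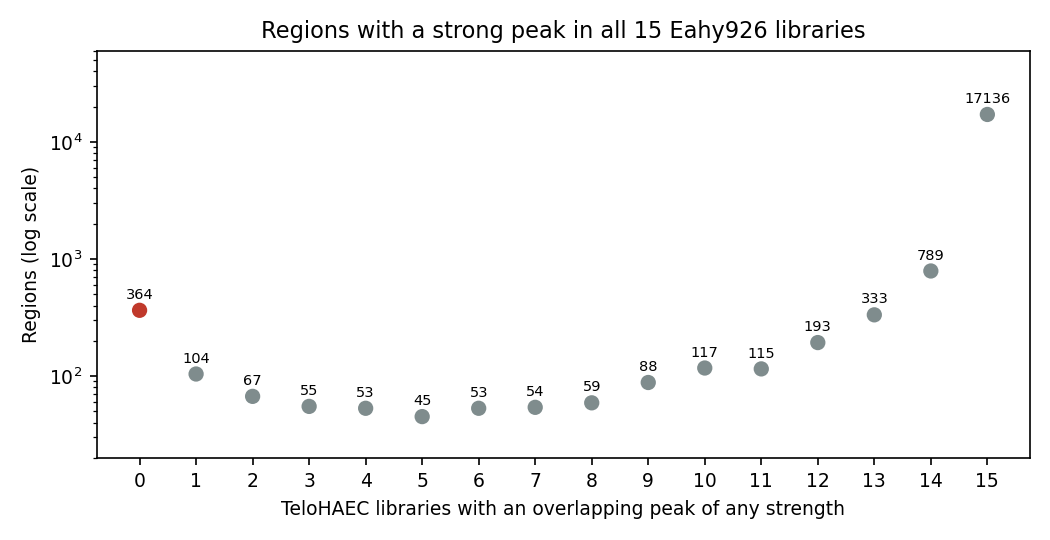
Number of regions (log scale) with a strong peak in all 15 Eahy926 libraries, by the number of TeloHAEC libraries that have an overlapping peak of any strength. The 364 members (red) outnumber each class from 1 to 13 TeloHAEC libraries, and 17136 regions have a peak in all 15.

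Members just inside the threshold had their weakest place near 45000, where the place is the rank of a peak in its library's list and 1 is the strongest. The region chr5:127886891-127887526 had its weakest place, 44968, in replicate 1 of the day 0 controls. The region chr18:61364350-61364866 had 44967 in replicate 2 of that group. Among regions that missed the rule by 1 library, chr20:58824309-58824994 had a median place of 388 in Eahy926 and was left out for a peak at place 87982 in 1 IL1b library of TeloHAEC. The region chr5:174673224-174674012 had a median place of 688 and a peak at place 104932 in the same TeloHAEC library. These 2 were stronger in Eahy926 than nearly all members, and the TeloHAEC peaks that removed them were weak.

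Applied to part of the libraries, the rule could be read in the libraries it had not used. The regions themselves were merged from the strong peaks of all 30 libraries, so those libraries were not fully left out. No share was computed for other regions. The 12 day 1 libraries of each line alone chose 565 regions. Of these, 408 (72.2%) had a strong peak in all 3 Eahy926 controls of day 0, and 513 (90.8%) had no peak in the 3 TeloHAEC controls of day 0. The 3 day 0 controls alone chose 1884 regions, of which 776 (41.2%) were strong in all 12 Eahy926 libraries of day 1 and 886 (47.0%) had no peak in the 12 TeloHAEC libraries of day 1. Selection from 12 libraries therefore carried over to the other day more often than selection from 3, although the number of held-out libraries also differed.

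Members were narrower and weaker than the rest of the Eahy926 regions. Their median width was 558 bases (280 to 1154). It was 782 for the 19261 other regions strong in all Eahy926 libraries and 654 for the regions found only in TeloHAEC. Widths are of regions merged over the strong peaks of both lines. A member holds peaks of Eahy926 only, so part of the difference in width can follow from the rule. Strong peaks also tended to be wider in TeloHAEC. The median place of the members was 15190, against 11150 for the others, and both sets were chosen by place. A median place under 5000 was reached by 27 members (7.42%) and by 21.4% of the others. The median member had 2.41 tags per 1000000 kept tags at its summit, from the authors' pileup, and an authors' fold enrichment of 8.90 over the local background. Across libraries, a member's strongest summit deviated from its median position by a median of 15 bases (2 to 296). The range of summit positions had a median of 107.5 bases (20 to 848). A single summit in all 15 libraries was found for 145 members (39.8%). Summits of other regions were not measured. The longest member, chr3:79067799-79068952, spanned 1154 bases in ROBO1, the gene of a guidance receptor for SLIT proteins, with a median place of 26046 (8422 to 38107).

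Members lay far from chromatin that was open throughout. The nearest region strong in all 30 libraries was a median of 355704 bases away, against 37989 for the other Eahy926 regions that were not strong in all 30 and 86161 for the regions found only in TeloHAEC. For 84 members (23.1%) that distance was over 1 Mb, which held for 1.38% and 3.07% of the comparison regions. A TeloHAEC peak lay within 1 kb of 31 members (8.52%), and none lay within 100 kb of 98 (26.9%). The members were chosen for not overlapping a TeloHAEC peak, and 24 of them (6.59%) still lay within 10 kb of a region strong in all 30 libraries.

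All 22 autosomes held members, in unequal numbers. Chromosome 21 had 64.4 members per 1000 regions strong in all Eahy926 libraries (13 of 202), chromosome 18 had 47.4 (18 of 380), chromosome 13 had 46.8 (13 of 278) and chromosome 4 had 39.0 (31 of 795). The lowest values were 5.73 on chromosome 19 (5 of 873), 6.67 on chromosome 11 (8 of 1200) and 7.02 on chromosome 14 (5 of 712). Chromosomes 21, 13 and 18, with the highest values, also had few strong regions. The order was not strict: chromosome 22, with 343, had 17.5. Chromosome 14, with 712, had fewer members per strong region than chromosome 4, with 795. Whether the values depend on the number of strong regions was not tested.

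**Figure D2:**
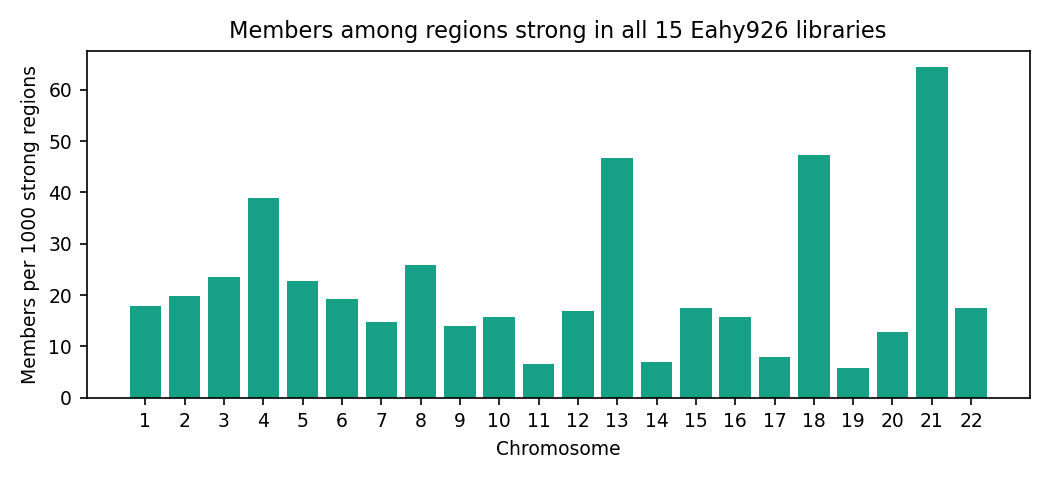
Members per 1000 regions with a strong peak in all 15 Eahy926 libraries, for each of the 22 autosomes. Chromosomes 21, 18, 13 and 4 stand highest (64.4, 47.4, 46.8 and 39.0) and chromosome 19 lowest (5.73).

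The strongest member by far was chr1:567165-568124, which overlaps MTCO1P12, a nuclear copy of the mitochondrial gene for cytochrome c oxidase subunit 1. It was at place 1 in 15 of 15 Eahy926 libraries, with an authors' pileup of 160 to 190 tags, and had no peak in TeloHAEC. A neighbouring stretch, at chr1:569699-570270 in replicate 1 of the day 0 Eahy926 controls, had a peak in all 30 libraries. Its places were 2 to 15 in Eahy926 and 1 to 2 in TeloHAEC. The nearest TeloHAEC peak lay 1288 bases from the member. Both lines therefore had a peak close by, and the member itself was called in 1 line only. The part of reads from the mitochondrial genome itself was not tested.

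Apart from it, the member of best median place was chr12:114211254-114211836, where the nearest start placed here, that of RBM19, was 192340 bases away. Its places were 1645, 2757 and 1948 in the day 0 controls, 977, 323 and 900 in the day 1 controls, 480, 1030 and 686 with IL1b, 114, 664 and 445 with TNFa, and 24, 1258 and 12 with VEGF. It was weakest in the 3 day 0 libraries and reached its best places in 2 of 3 VEGF libraries, while the other was weaker than all 3 day 1 controls. The next were chr8:57594495-57595195 at 235983 bases from the start of PENK (median place 916), chr12:127029832-127030476 (1555), chr17:69408731-69409466 at 707734 bases from that of SOX9 (1840) and chr12:21569303-21570137 at 20401 bases from that of PYROXD1 (2007). They were followed by chr5:149925603-149926246 in NDST1 (2080), chr2:78768741-78769456 (2152), chr11:132756142-132756876 in OPCML (2211) and chr7:113436427-113437136 at 121946 bases from the start of PPP1R3A (2345). SOX9 is a transcription factor of cartilage and progenitor cells, NDST1 an enzyme that sulfates heparan sulfate, and OPCML a cell adhesion protein of the IgLON family. Nearness does not show which gene such a region acts on.

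Of the members, 10 lay within 1 kb of the start of a gene placed here by hand, the copy of the mitochondrial gene included. Only 422 genes were placed and no share was computed for other regions, so this does not show how many members are at gene starts. SPEF2, which encodes a protein of sperm flagella and cilia, had the strongest of the other 9. Its region chr5:35617469-35618307 was at places 4890, 6840 and 2302 in the day 0 controls, 555, 2276 and 3534 in the day 1 controls, 910, 1431 and 2519 with IL1b, 2520, 2863 and 5784 with TNFa and 2592, 4551 and 1678 with VEGF. All 5 groups overlapped in their range except the IL1b and TNFa groups, which stood apart by 2519 against 2520. FSTL5 encodes a secreted follistatin-like protein. Its start lay in chr4:163084962-163085726, at places 5086, 4253 and 1489 on day 0, 1148, 14452 and 19486 in the day 1 controls, 799, 4028 and 10174 with IL1b, 5642, 9853 and 3203 with TNFa and 5473, 2814 and 3568 with VEGF. Replicates of this region differed more than its groups did. The others were at WDR17 (WD-repeat protein, median place 6551), GALNT13 (an O-glycosylation enzyme, 6555), AADAT (an aminotransferase of the kynurenine pathway, 9552), ERC2 (a scaffold of the presynaptic release site, 13742), TIMP3 (an inhibitor of metalloproteinases, 18581), FBXO16 (an F-box protein, 20908) and SPTLC3 (a subunit of the first enzyme of sphingolipid synthesis, 22693). TIMP3 was the only one of the 9 whose start lay outside the member, 555 bases from its edge. A TeloHAEC peak lay 478 bases from the member at ERC2 and 282 bases from that at SPTLC3, so these 2 starts were not without open chromatin nearby in TeloHAEC.

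**Figure D3:**
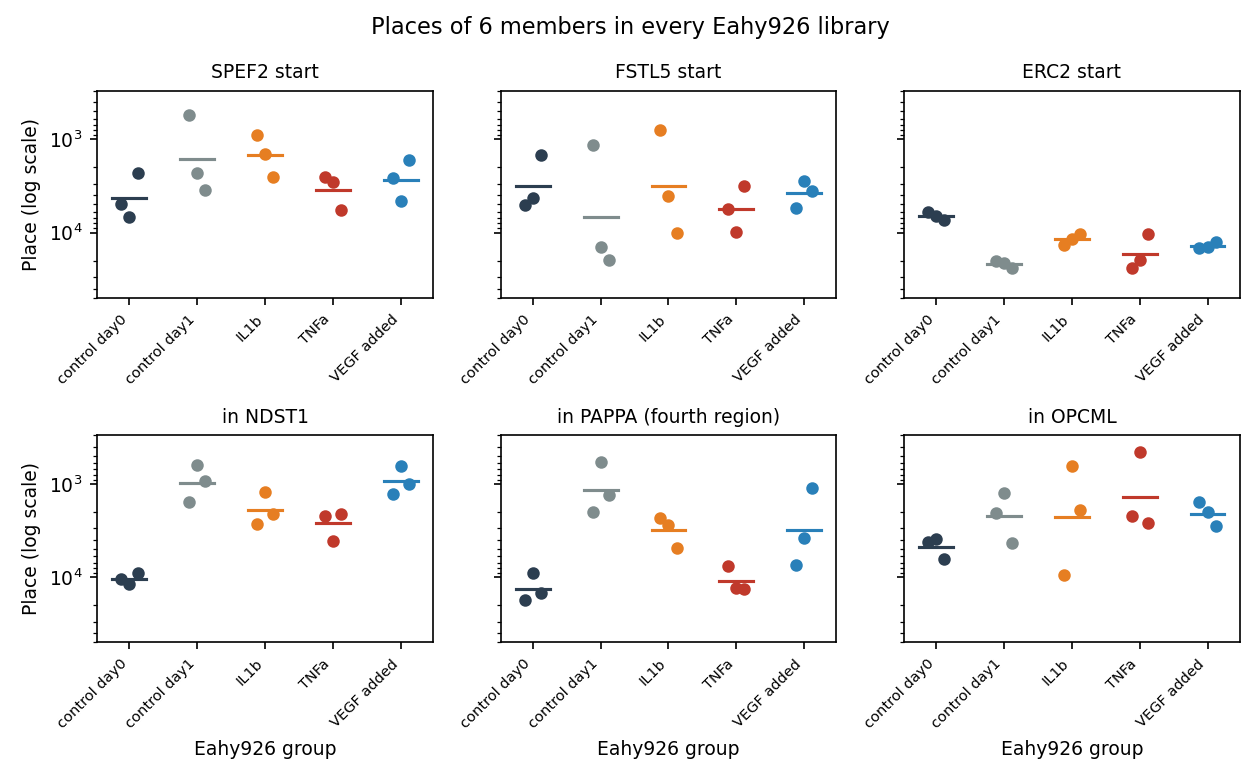
Place of 6 members (log scale, strongest at the top) in each of the 15 Eahy926 libraries, with points for libraries and a bar for the geometric mean of each group of 3. The members at the ERC2 start and in NDST1 and PAPPA separate the 2 control groups, while those at SPEF2 and FSTL5 overlap between them.

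None of the 364 members lay within 50 kb of the start of any of 239 genes in 10 lists, which covered epithelial, lung, hepatic, endothelial, mesenchymal, NF-kB, AP-1, NRF2 and housekeeping genes. The same distance held 517 (2.63%) of the regions strong in all Eahy926 libraries, 2021 (1.94%) of all merged regions and 9 (0.814%) of the regions found only in TeloHAEC. For the endothelial list the counts were 0 members and 106 strong regions (0.54%), and for the epithelial list 0 and 95 (0.484%). The lung factor and lung secretory lists gave 0 members each, and 13 (0.0662%) and 22 (0.112%) strong regions. The epithelial and both lung lists also held 0 of the regions found only in TeloHAEC. At shares this small, few of 364 regions would lie near any 1 list. Every list gave 0, housekeeping included, so no conclusion about the parent cell types was drawn. The rule leaves out starts open in most libraries of 1 line. A strong peak lay within 1 kb of KRT7 in 13 Eahy926 and 0 TeloHAEC libraries, and of FOXA1 in 14 and 3. Others went the other way, with 0 and 4 at KRT19 and 6 and 12 at ELF3. Open in all 15 libraries were 5 of 38 epithelial starts in each line. For the 19 lung factor starts it was 3 in Eahy926 and 1 in TeloHAEC.

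By hand-written gene bodies, which cover only genes near members and were chosen after the members were seen, 114 of 364 members fell inside a gene. No background share was computed for other regions. PAPPA and SYN3 held 5 each, ADGRB3, FSTL5 and RGS7 held 4 each, and OPCML held 3. The member at the TIMP3 start is among the 5 in SYN3. These counts were not adjusted for gene length. PAPPA is a metalloproteinase that releases insulin-like growth factors from their binding proteins, SYN3 a synapsin of nerve terminals, ADGRB3 an adhesion G protein-coupled receptor of neurons and RGS7 a regulator of G protein signalling. Neighbours within 100 kb were joined into clusters: 283 members (77.7%) stood alone and 81 (22.3%) were in 33 clusters. By the same distance, 32.0% of the regions found only in TeloHAEC, which are more numerous, had another of their kind nearby.

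The largest cluster was the 5 members in PAPPA, over 187139 bases at chr9:118953041-119140179. Their median places, in order along the chromosome, were 10919, 18379, 7510, 4882 and 4639. A further region in the gene, chr9:118996195-118996839, missed the rule by place 46101 in 1 day 0 library and had a median place of 3208. There were 4 clusters of 4 members. One lay in ADGRB3 at chr6:69729624-69800371, with median places from 13328 to 21057. The others were at chr1:238769929-238817663 (10594 to 23527), chr12:126967646-127030476 (1555 to 19327) and chr3:117266874-117411873, at 1102489 bases or more from the start of LSAMP, another IgLON gene (6608 to 26165). In the last 3, no gene placed here contained the members.

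Places of the members differed between preparation days, with which the read length also changed. Their median place was 19454 to 19962 in the 3 controls of day 0 and 12262 to 14234 in the 12 libraries of day 1. The median of the other strong regions was 10349 to 10907 in all 15, which their number nearly fixes, since they fill much of each list of 45000. For the members, the libraries of the 2 days did not overlap, and treated and untreated libraries of day 1 fell in the same range. The rule asked for a place of 45000 or better in every library of both days, so it used the places compared here. For a test, each place was turned into a rank score, log2 of 45000 plus 1 over the place, so that 1 unit is a halving of the place, and day 1 controls were compared with day 0 controls by limma with Benjamini-Hochberg adjustment over all regions tested. Of the 364 members 54 passed (14.8%), where 16.7% of the 44461 regions tested did, so the share that changed was near the background and the direction was uneven. Among them 52 rose (14.3%) and 2 fell (0.549%), where 8.00% of all regions tested rose and 8.66% fell. The median change was 0.56 for the members and -0.03 for all regions tested, and 289 of 364 members (79.4%) had a positive change. An unadjusted p under 0.05 was reached by 120 members (33.0%), where 34.7% of all regions reached it.

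**Figure D4:**
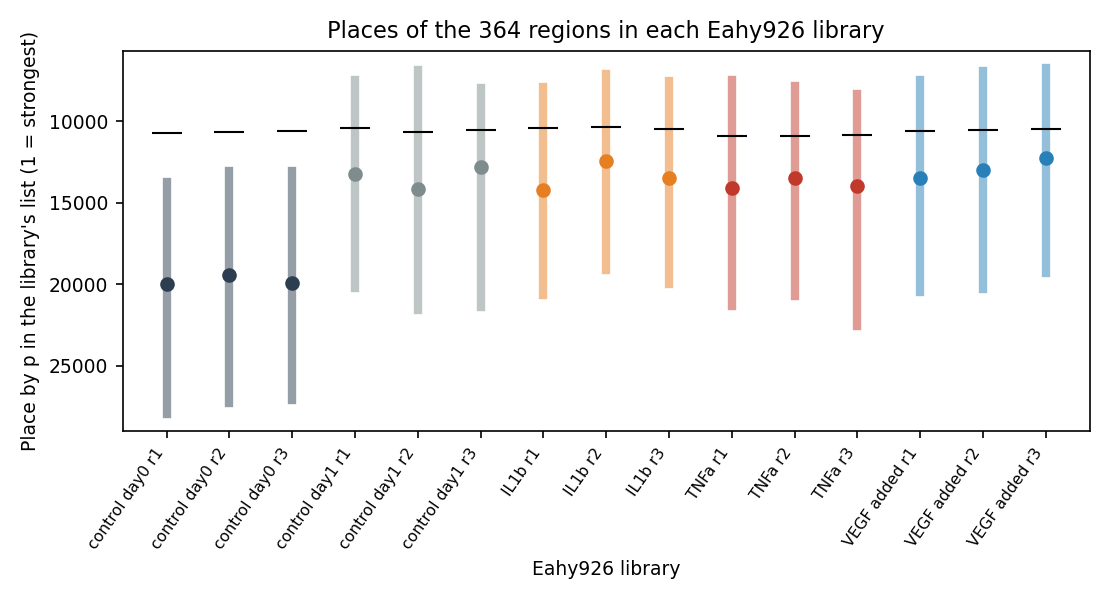
Median place (points) and middle 50% (coloured lines) of the 364 members in each Eahy926 library, strongest at the top, with the median of the other strong regions as black dashes. The members stand at 19454 to 19962 in the 3 day 0 controls and between 12262 and 14234 in the day 1 libraries, while the dashes, nearly fixed by the number of those regions, lie between 10349 and 10907.

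The shift was as large at regions with a peak in 1 to 7 TeloHAEC libraries as at the members. The class with a peak in all 15 holds 17136 regions and fills much of each list, which nearly fixes its median. The classes were not matched for strength. Among regions strong in all 15 Eahy926 libraries, the median change between days was 0.56 for 0 TeloHAEC libraries with a peak, 0.56 for 1 to 7, 0.40 for 8 to 14 and -0.03 for 15. The share that rose went from 14.3% to 14.8%, 12.4% and 8.51% in that order, and the share that fell from 0.549% to 0.696%, 2.83% and 9.16%. By ranges alone, day 1 lay wholly above day 0 at 125 members (34.3%) and wholly below at 14 (3.85%), where 18.7% and 20.8% of all regions tested did so. Of the 19625 regions strong in all 15 Eahy926 libraries, 20.6% and 19.4% did so. The same comparison in TeloHAEC, added after the data were seen, called 9.51% of 45563 regions, with 4.01% rising and 5.50% falling. Of the 1106 regions found only in TeloHAEC, 91 (8.23%) rose there and 2 (0.181%) fell, with a median change of 0.55. In both lines, more of the regions found in that line alone rose than fell. Both sets were chosen by the same rule from places of both days, so the second line is no independent support.

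The count of rises depended on the day 0 libraries and on the scale. Leaving out replicate 1, 2 or 3 of the day 0 controls left 13, 10 and 15 members called, all rises. That was 3.57%, 2.75% and 4.12% of the members, where 4.64%, 4.75% and 4.90% of all regions were called. With the authors' fold enrichment as the order of the lists 15 members (4.13%) were called, where 5.33% of all regions were. With the authors' pileup per 1000000 tags 148 members (40.7%) were called, 140 rises and 8 falls, where 32.1% of all regions were. On that pileup scale 8544 of all regions rose and 4781 fell, against 3558 and 3852 on the main scale. With no filter on weak regions, 0 of 104378 regions and 0 members passed in limma, and 106 members had an unadjusted p under 0.05.

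The 5 rises of smallest p were large. At chr15:63142929-63143551 the places were 32709, 29925 and 27363 on day 0 and 4557, 3668 and 2467 on day 1, a change of 3.11 ± 0.44 (SE, limma adjusted p = 0.00449). At chr20:8996602-8996961 they were 39568, 30644 and 31424 against 8131, 1967 and 1463 (3.56 ± 0.60, limma adjusted p = 0.00662). In neither region did the days overlap. The region in NDST1 went from 10380, 12001 and 9142 to 1559, 635 and 932 (3.42 ± 0.58, limma adjusted p = 0.00671). The region chr9:119041479-119042114 in PAPPA went from 17747, 9070 and 14646 to 1986, 588 and 1316 (3.53 ± 0.61, limma adjusted p = 0.00694). The fifth, chr9:118367418-118367904, rose by 3.14 ± 0.46 (limma adjusted p = 0.0047). It lies before PAPPA on the same chromosome arm, so 2 of the 5 were within 1 Mb of each other.

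The 2 falls were of another kind. At the ERC2 start, chr3:56502034-56502813, places were 6030, 6675 and 7363 on day 0 and 19960, 21347 and 23949 in the day 1 controls, a change of -1.70 ± 0.40 (limma adjusted p = 0.0185). Every day 1 library of this region, treated ones included, was weaker than every day 0 library, with places from 10291 to 24094. The other fall was at chr2:91847767-91848215, close to the centromere of chromosome 2. Its places went from 1256, 2800 and 1635 to 4167, 9062 and 20845 (-2.37 ± 0.66, limma adjusted p = 0.0306).

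The signs at gene starts were mixed, and mostly negative. In this split, chosen after the values were seen, 7 of the 9 members at gene starts had a negative change and 2 a positive one, with a median of -1.01. Of the 354 others, 286 had a positive change and 68 a negative one, with a median of 0.60. The negative values were -1.70 at ERC2, -1.11 at FSTL5, -1.07 at TIMP3, -1.04 at AADAT, -1.01 at WDR17, -0.62 at GALNT13 and -0.17 at FBXO16. Only that at ERC2 passed the test. The positive values were 1.37 at SPEF2, which did not pass, and 1.24 ± 0.37 at SPTLC3, which rose (limma adjusted p = 0.0397). The 354 others may include starts of genes not placed here. No test was made of the difference between the 2 classes.

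**Figure D5:**
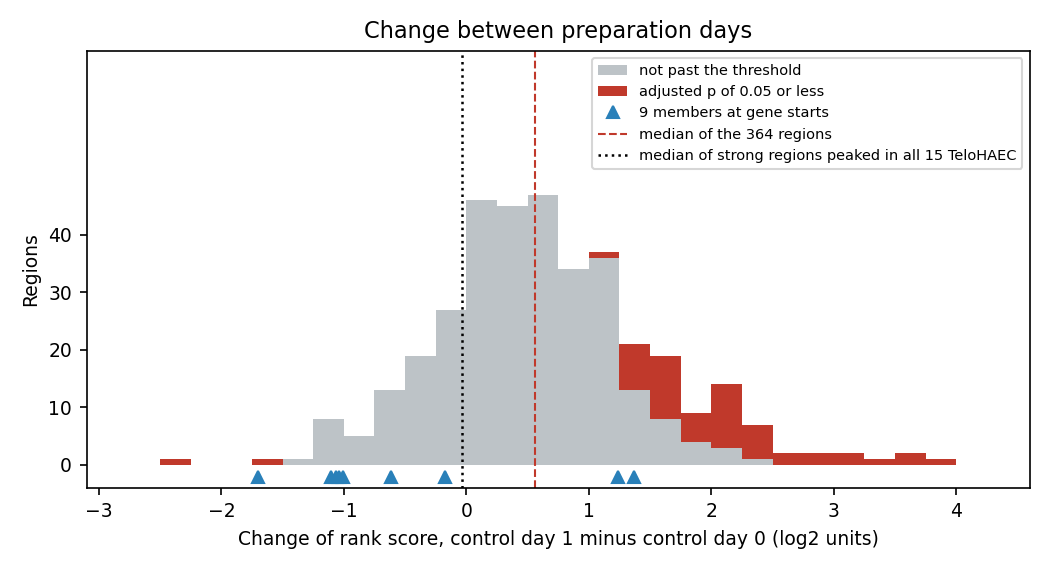
Histogram of the change in rank score (log2 units, day 1 controls minus day 0 controls) for the 364 members, with those past the threshold in red and the 9 members at gene starts as blue triangles. The median of the members (dashed) is 0.56, and 7 of the 9 triangles lie below 0. The median of strong regions with a peak in all 15 TeloHAEC libraries (dotted) is -0.03, which their number nearly fixes.

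Within the PAPPA cluster the days differed by region. Along the chromosome, the changes were 0.73, 0.13, 1.69, 3.53 and 1.38, of which the third and the fourth passed the test. In ADGRB3 the 4 changes were -0.41, 0.12, 0.25 and 1.63, of which the last passed (limma adjusted p = 0.0489). Neighbouring members therefore did not share 1 size of change.

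No member passed the threshold in any comparison with untreated cells, where at most 0.219% of all regions did. The rule asked for a strong peak in every Eahy926 library, treated ones included. A region opened or closed by treatment could therefore not be a member. The regions tested needed such a peak in at least 3 libraries only, so the counts of members are partly fixed by the rule. The 3 comparisons with untreated cells share the day 1 controls. With IL1b, limma called 0 of 364 members, and 12 had an unadjusted p under 0.05. This comparison called 0.00% of 53771 regions, and 4.19% had an unadjusted p under 0.05. With TNFa it called 0 members, where 0.219% of all regions passed, and 23 members had an unadjusted p under 0.05, where 8.76% of all regions did. With VEGF it called 0 members and 0.00% of all regions, and 12 members had an unadjusted p under 0.05, where 5.03% did. The median change of the members was -0.0014 with IL1b, -0.09 with TNFa and 0.03 with VEGF, and over all regions 0.00, -0.01 and 0.00. The share of members past an unadjusted p of 0.05 was 3.30%, 6.32% and 3.30%, below the background in each of the 3. That order depended on the settings: without a filter the shares were 5.22% with IL1b, 9.89% with TNFa and 4.67% with VEGF, where 2.72%, 4.94% and 3.07% of all regions were past it. On pileup they were 4.67%, 7.69% and 4.12%, against 4.41%, 6.36% and 4.16%. By ranges alone, treated libraries lay wholly above the controls at 16 members with IL1b (4.40%, against 4.02% of all regions), 21 with TNFa (5.77%, against 5.87%) and 22 with VEGF (6.04%, against 3.98%). They lay wholly below at 14 members with IL1b (3.85%, against 4.12%), 29 with TNFa (7.97%, against 5.71%) and 11 with VEGF (3.02%, against 4.09%).

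The member of smallest p with TNFa was the fourth PAPPA region. Its places were 1986, 588 and 1316 in the day 1 controls, 7613, 12998 and 13479 with TNFa, 2306, 2762 and 4882 with IL1b and 7392, 3772 and 1112 with VEGF. The TNFa libraries lay wholly below the controls, by -3.25 ± 0.75 on the rank score, and the limma adjusted p was 0.0713. The TNFa places overlapped those of the day 0 controls of the same region, 9070 to 17747. The second, chr15:63142929-63143551, was at 4557, 3668 and 2467 in the controls and 11836, 10734 and 25018 with TNFa (-2.09 ± 0.63, limma adjusted p = 0.251). Both regions were also named above for their rise between days, a comparison that uses the same 3 day 1 controls with the opposite sign, so high controls enter both values.

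The smallest p with IL1b was at chr3:116997627-116998077, 2911, 7950 and 8638 in controls against 12840, 32663 and 26777 (-1.94 ± 0.60, limma adjusted p = 1). Next came chr20:14978307-14978987 in MACROD2, the gene of an ADP-ribose hydrolase, at 4549, 1962 and 1816 against 5603, 14918 and 15563 (-2.11 ± 0.68, limma adjusted p = 1). In both regions every IL1b library was weaker than every control. With VEGF the smallest p was at chr18:14976746-14977222, at 11726, 12055 and 4627 against 33616, 27199 and 29291 (-1.79 ± 0.53, limma adjusted p = 0.954). Next was chr13:32329842-32330900 in RXFP2, the gene of a relaxin family receptor, at 14730, 20659 and 14943 against 5112, 6350 and 9677 (1.29 ± 0.53, limma adjusted p = 0.954). The groups did not overlap in either, though neither passed the test.

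Few regions of any kind differed between the 2 cytokines by the test. TNFa against IL1b called 0 members and 0.244% of all regions in limma, and 23 members had an unadjusted p under 0.05 (6.32%), where 8.51% of all regions did. Without a filter these shares were 7.69% and 4.87%. TNFa lay wholly above IL1b at 20 members (5.49%, against 5.95% of all regions) and wholly below at 30 (8.24%, against 5.93%). The smallest p was at chr1:241279047-241279484 in RGS7, at 31945, 26959 and 23792 with IL1b and 13240, 3394 and 8623 with TNFa (1.91 ± 0.55, limma adjusted p = 0.223). The second was chr12:75851599-75852092 at 22421 bases from the start of GLIPR1, with places of 13427, 13189 and 15079 with IL1b and 3685, 4952 and 2900 with TNFa (1.89 ± 0.56, limma adjusted p = 0.236). Both were stronger in the 3 TNFa libraries than in the 3 IL1b libraries. The second lies 206 bases from a TeloHAEC peak.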

How the data were processed

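ATAC-seq of 30 libraries was used in 10 groups of 3. The submitters' processing notes name hg19, Bowtie2 and MACS2. Peak calling used MACS2, version 2.1.1.20160309 per the file headers, with single-end tags without a control, at p of 0.001. Per the file headers, the deposited lists hold the authors' pileup signal, -log10 p-value, fold enrichment (a ratio) and -log10 q-value for each summit. They hold no counts, so places in lists were compared. Summits of 1 interval were joined, keeping the lowest p.

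Rank scores (0 without a strong peak) were fitted by limma 3.58.1 under R 4.3.3, with a trend, two-sided, for regions strong in at least 3 libraries of the fit. Treatments were fitted over the 12 Eahy926 libraries of day 1 and days over 6 controls. The threshold was an adjusted p of 0.05. Code was tested on simulated data. Python 3.11.15, numpy 2.4.6, pandas 2.3.3 and matplotlib 3.10.9 were used.

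Members and gene lists were chosen with earlier results of these data known. Positions of 422 genes on hg19 were written from general knowledge, those of gene bodies near members after the members were seen. Against the RefSeq gene table of GRCh38.p14, the chromosome matched for 422 of 422 and the order for 399 of 400 adjacent pairs. Rough lengths and offsets were also compared across the builds to find slips, and 2 genes were dropped. In the mean library 43.7% of the starts had a strong peak at most 1 kb away, against 6.94% after a shift by 20 kb. A start without a peak may be a wrongly placed one.

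Named members were the 10 of best median place, those within 1 kb of a start, up to 5 called in each direction or the 2 of smallest p in each comparison, clusters of 4 or more (the rule asked for 3 clusters, and 4 tied), the longest, and those nearest the threshold. Others were named after their values were seen. Alternatives changed the list length, order, scale, filter and libraries.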

Additional observations from a re-analysis of the deposited data

How the results depend on the processing

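The rule chose 164 regions with the 30000 strongest peaks of each list, 885 with weak TeloHAEC peaks allowed and 719 in the 6 controls of each line alone. Other settings, with 1 library left out at a time among them, gave 283 to 394. An added setting without the 3 libraries of under 4000000 tags gave 376. Treatment comparisons called 0 members under every alternative run, where at most 0.315% of all regions were called. The rule partly fixes this, since it asked for a strong peak in every treated library of Eahy926. For the days, 148 members were called on pileup per 1000000 tags, 15 by order of fold enrichment and 0 without a filter, and the causes were not tested. Leaving out 1 replicate gave 10 to 59 members.

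Same-numbered replicates of different groups did not vary together: the median correlation of their deviations over 18 pairs was -0.00906, and 0 pairs were above 0.1. The correlations cannot show whether same-numbered libraries were prepared together. With a replicate block 73 members (20.1%) were called between days, where 19.2% of all regions were, and 0 members in each treatment comparison. Depth limits the absence of a peak in TeloHAEC to what lists of 67804 to 115794 peaks could show, and 3 replicates limit the tests.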
